A study of Mus musculus with 2 samples.

Results

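Nuclear genes for tissue isoforms of cytochrome c oxidase were examined in fast and slow skeletal muscle fibres of the mouse. The 10 genes, chosen by name, were Cox4i1, Cox4i2, Cox6a1, Cox6a2, Cox6b1, Cox7a1, Cox7a2, Cox7a2l, Cox8a and Cox8b, out of 23458 genes with a named probe on the array. Each was found through the RefSeq transcript listed for its probe, and each had 1 probe, printed once. Per the labels, fibres of 8 male mice were pooled, and all animals were aged 6 to 8 weeks and heterozygous for a GFP-Myh7 allele, which makes fibres with slow myosin fluoresce. The fast pool held 4447 fibres without GFP signal from the extensor digitorum longus (EDL), and the slow pool held 1659 GFP-positive fibres from the soleus. One label of the slow sample gives EDL as its tissue, but the soleus is named as its source and in the protocol. RNA of each pool was hybridised to 1 array, so muscle and fibre type cannot be told apart, and without replicates no test between the pools was possible.

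Cytochrome c oxidase, or complex IV, is the last enzyme of the respiratory chain. It passes electrons from cytochrome c to oxygen and pumps protons across the inner mitochondrial membrane. Mitochondrial DNA encodes its catalytic core, and nuclear genes encode the smaller subunits around that core. Several of these exist in alternative forms, of which COX6A2, COX7A1 and COX8B are the heart and skeletal muscle forms and COX6A1, COX7A2 and COX8A the forms of most other tissues. COX4I1 is the general form of subunit IV and COX4I2 a form known from the lung that responds to oxygen supply.

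Of the 10 genes, Cox8a and Cox6a1 exceeded a 2-fold difference, both with more signal in slow fibres, none did so in the other direction, and 8 were within 2-fold. The background is the set of 12855 genes with signal on both arrays, of which 9.40% had 2-fold or more signal in slow fibres and 12.7% in fast fibres. The muscle forms Cox6a2, Cox7a1 and Cox8b differed by at most 0.26 on the log2 scale under the main setting, and so the muscle form was lower relative to its partner in slow fibres by 2.02-fold for COX6A and 2.13-fold for COX8. The COX7A pair differed by less than the software error. The median difference of the 10 genes was 0.16, beside 0.05 for all measured genes. A gene counted as measured where its spot was well above background on both arrays, as all 10 were. Differences are slow minus fast in log2 processed intensity after subtracting the 75th percentile of each array. The error given is the scanner software's own estimate for a spot, 10% of the signal for most of these spots, which gives 0.20 for a difference. For 291 probes printed several times, the median SD of that difference over spots was 0.05. Neither covers animals, dissections or labelling.

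**Figure D1:**
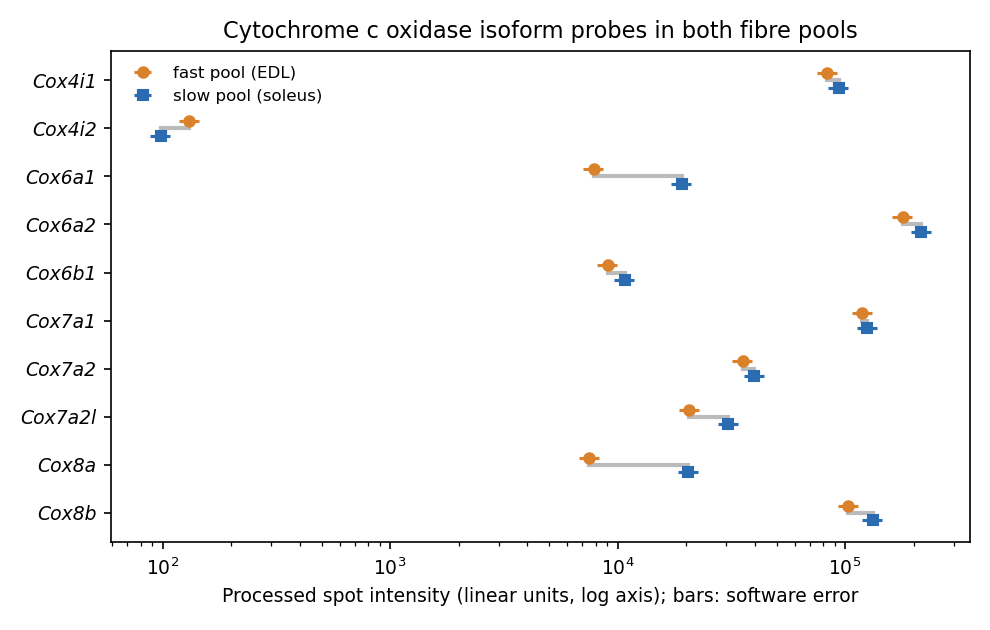
Processed spot intensity (linear units on a log axis) of the 10 genes in the fast pool (circles) and the slow pool (squares), 1 array each, with the software error as bars. The pools are farthest apart for Cox8a (7519 and 20444) and Cox6a1 (7846 and 19155), while the 3 muscle forms Cox6a2, Cox7a1 and Cox8b lie close together.

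The labels were borne out by the myosin genes. Myh7, the slow heavy chain that carries the GFP tag, had an intensity of 1094 in fast and 316863 in slow fibres, and Myh4, the heavy chain of the fastest fibres, 160781 and 57.9. On the arrays 52.3% of spots in the fast and 50.9% in the slow sample were well above background, and no spot was saturated. Spots of 9 of the 10 genes belonged to the brightest 10% of the measured genes, which describes spot signal and not transcript abundance. In that brightest group 6.77% of the genes had 2-fold or more signal in slow fibres, and 8.48% had it in fast fibres.

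Subunit VIa lies at the contact of the paired enzyme complexes. Cox6a1, its general form, had an intensity of 7846 ± 785 (software error) in fast fibres and 19155 ± 1916 in slow fibres. The slow pool was higher by 1.19 ± 0.20 in log2, or 2.28-fold. Cox6a2, the muscle form, had an intensity of 179438 ± 17944 in fast and 216410 ± 21641 in slow fibres. Its difference of 0.17 ± 0.20 was smaller than its error, and it turned to -0.06 under loess. The muscle form therefore stood 1.02 ± 0.29 lower in log2 against its partner in the slow pool than in the fast pool. This compares the change of each gene between pools and not the abundance of one form with that of the other. This value fell in size to -0.51 under quantile normalization and to -0.48 under normexp background correction with quantile normalization, where Cox6a1 itself was at 0.98, just within 2-fold.

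Subunit VIII is a single-span subunit of the membrane part of the enzyme. Cox8a, its general form, had an intensity of 7519 ± 752 in fast fibres and 20444 ± 2044 in slow fibres. The slow pool was higher by 1.34 ± 0.20 in log2, or 2.54-fold, and at least 1.18 higher under each of 11 alternative settings. The probe rules among these settings could not change this value, since Cox8a had 1 probe. Cox8b, the muscle form, had an intensity of 103323 ± 10332 in fast and 132045 ± 13205 in slow fibres. Its difference was 0.26 ± 0.20, and it ran from 0.04 under loess to 0.67 under scaling to spike-in controls. The muscle form stood 1.09 ± 0.29 lower against its partner in the slow pool, and -0.57 under quantile normalization. Both Cox6a1 and Cox8a thus had over 2-fold more signal in slow fibres while their muscle-type partners differed by 1.13-fold and 1.19-fold.

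The 250 bases before the annotated start of these genes are shown because Cox6a1 and Cox8a were past 2-fold towards slow fibres, whereas the muscle forms Cox8b, at 0.26, and Cox7a1, at -0.03, were within 2-fold. They were taken from RefSeq (build GRCm38.p6), in which 7 of the 10 genes had a promoter entry, and Cox4i1, Cox4i2 and Cox6a2 had none. Capitals mark matches to the motifs searched, and each sequence runs 5′ to 3′ on the gene's strand.
Cox6a1, chr5:115348959-115349208, minus strand: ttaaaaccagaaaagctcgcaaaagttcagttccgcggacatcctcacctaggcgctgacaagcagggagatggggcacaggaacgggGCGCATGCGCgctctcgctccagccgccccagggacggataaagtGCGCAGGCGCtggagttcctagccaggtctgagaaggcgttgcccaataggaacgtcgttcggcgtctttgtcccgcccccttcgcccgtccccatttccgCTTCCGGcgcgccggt
Cox8a, chr19:7217617-7217866, minus strand: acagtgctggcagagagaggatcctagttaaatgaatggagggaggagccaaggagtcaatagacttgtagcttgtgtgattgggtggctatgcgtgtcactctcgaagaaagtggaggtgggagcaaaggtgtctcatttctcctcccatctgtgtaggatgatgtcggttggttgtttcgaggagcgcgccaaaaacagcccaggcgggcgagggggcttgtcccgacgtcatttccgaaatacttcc
Cox8b, chr7:140900447-140900696, minus strand: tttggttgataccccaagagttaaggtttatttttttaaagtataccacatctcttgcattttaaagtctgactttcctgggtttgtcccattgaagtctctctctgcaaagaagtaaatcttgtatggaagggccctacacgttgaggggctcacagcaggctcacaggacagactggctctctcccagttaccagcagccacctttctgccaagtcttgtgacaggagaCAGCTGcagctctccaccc
Cox7a1, chr7:30183921-30184170, plus strand: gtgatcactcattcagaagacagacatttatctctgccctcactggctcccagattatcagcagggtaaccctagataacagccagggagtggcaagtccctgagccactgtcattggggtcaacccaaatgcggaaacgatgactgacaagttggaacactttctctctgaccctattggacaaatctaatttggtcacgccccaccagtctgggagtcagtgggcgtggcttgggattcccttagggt

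The general forms had more CpG pairs in this window than the muscle forms. There were 26 in Cox6a1, 14 in Cox7a2 and 11 in Cox8a, but 4 in Cox7a1 and 1 in Cox8b, beside a median of 6 over 32851 promoters. The GC content was 62.8% for Cox6a1 and 52.8% for Cox8a against 47.2% for Cox8b and 51.2% for Cox7a1. Cox7a2, with 14 CpG pairs, had a difference of 0.07 between the pools. Motifs were searched on both strands, and they do not contain one another.

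Cox6a1 held 2 matches to the element of NRF1, an activator of respiratory genes, which reads GCGC, any base, then TGCGC. The first stood as GCGCATGCGC from 162 to 153 bases before the start. The other lay on the opposite strand from 117 to 108 bases before the start, where the gene's strand reads GCGCAGGCGC. This motif occurred in 3.74% of all promoters. Cox6a1 and Cox6b1 each held CCGGAAG on the opposite strand, where the gene's strand reads CTTCCGG. This is the core bound by ETS factors such as GABP, and it occurred in 6.91% of promoters. Cox8b held CAGCTG, an E-box of myogenic factors, which occurred in 13.0% of promoters. Cox8a and Cox7a1 held no match to any motif searched. None of the 7 windows held AAGGTCA (4.08% of promoters), the element of estrogen-related receptors, CTA and TAG with NNNN between them (3.20%), that of MEF2 factors, GCCATNTT (3.91%), that of YY1, or the TATA box TATAAA (12.4%). A match is a sequence description only.

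Subunit VIIa also comes in a muscle and a general form. Cox7a1, the muscle form, had an intensity of 119299 ± 11930 in fast and 125056 ± 12506 in slow fibres, and its difference was -0.03 ± 0.20, from -0.25 to 0.39 over the settings. Cox7a2, the general form, had an intensity of 35548 ± 3555 in fast and 39828 ± 3983 in slow fibres, with a difference of 0.07 ± 0.20, from -0.12 to 0.48 over the settings. The pair therefore differed by -0.10 ± 0.29, and by 0.32 under quantile normalization and 0.30 under normexp with quantile normalization, so that its sign was not settled. Unlike the COX6A and COX8 pairs, the general form of COX7A was not past 2-fold under any setting, and the difference between the pairs was not tested.

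Cox7a2l encodes a relative of the VIIa subunits that tethers complex III to complex IV in respiratory supercomplexes. Its intensity was 20702 ± 2070 in fast and 30695 ± 3070 in slow fibres. At 0.47 ± 0.20 in log2, or 1.39-fold, it had the next highest difference among the 10 genes after Cox8a and Cox6a1, and it lay between 0.29 and 0.89 over the settings. Cox6b1, a subunit on the intermembrane space side that joins the paired complexes, had an intensity of 9042 ± 904 in fast and 10744 ± 1074 in slow fibres. Its difference of 0.15 ± 0.20 was smaller than its error and reached -0.03 under normexp with quantile normalization.

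Subunit IV, which binds ATP and tunes the enzyme to energy demand, differed little in its general form. Cox4i1 had an intensity of 83615 ± 8361 in fast and 93907 ± 9391 in slow fibres, a difference of 0.07 ± 0.20 that ran from -0.14 to 0.49 over the settings. Cox4i2 was the dimmest of the 10, at 131 ± 13.2 in fast and 98.1 ± 9.99 in slow fibres. It was the gene with the lowest difference among the 10, at -0.51 ± 0.21 or 1.43-fold higher in fast fibres, and -0.10 under scaling to spike-in controls. Against Cox4i1 it stood 0.58 ± 0.29 lower in slow fibres. Of the factors known to act on the oxygen-responsive element of Cox4i2, Cxxc5 was 2.41-fold higher in fast fibres, Rbpj stood at 0.50 by one probe and -0.34 by its other probe, and Chchd2 at -0.21. Beside Cox4i2, the mural cell genes Rgs5, Notch3 and Kcnj8 were 3.06-fold, 2.41-fold and 2.17-fold higher in fast fibres. Notch3 and Kcnj8 were at -0.85 and -0.70 in log2, within 2-fold, under scaling to spike-in controls. Of all 8 smooth muscle and pericyte genes listed, 4 had 2-fold or more signal in fast fibres, beside 12.7% of all genes. The other 4 were within 2-fold, with Acta2 at -0.13. The part of such cells in the value of Cox4i2 was not tested.

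**Figure D2:**
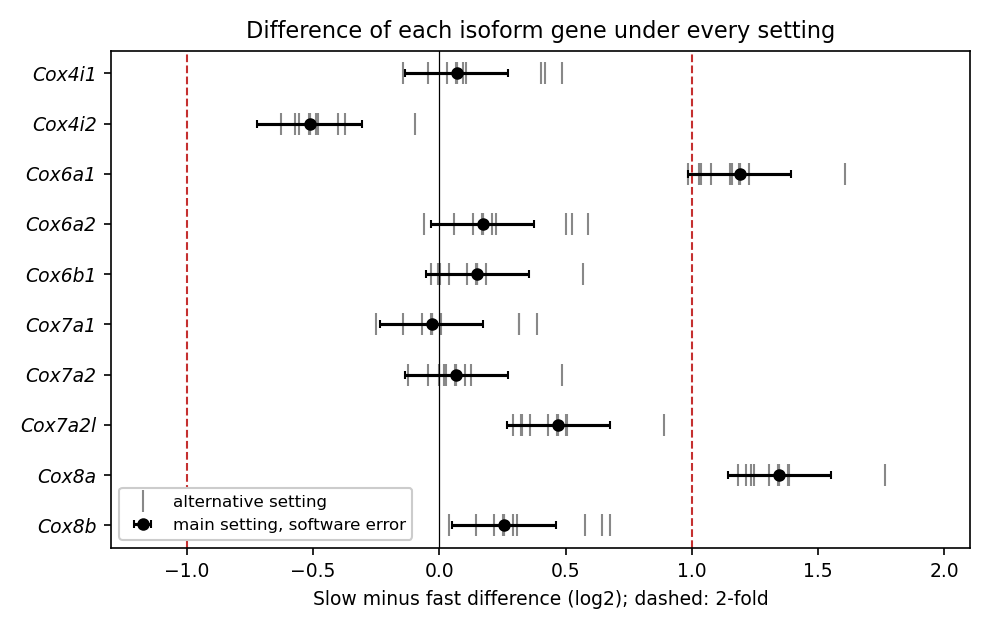
Slow minus fast difference (log2) of each gene under the main setting (points, with the software error as bars) and under 11 alternative settings (ticks). Cox8a and Cox6a1 lie near or beyond the dashed 2-fold line under every setting, and the other 8 genes lie within it.

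**Figure D3:**
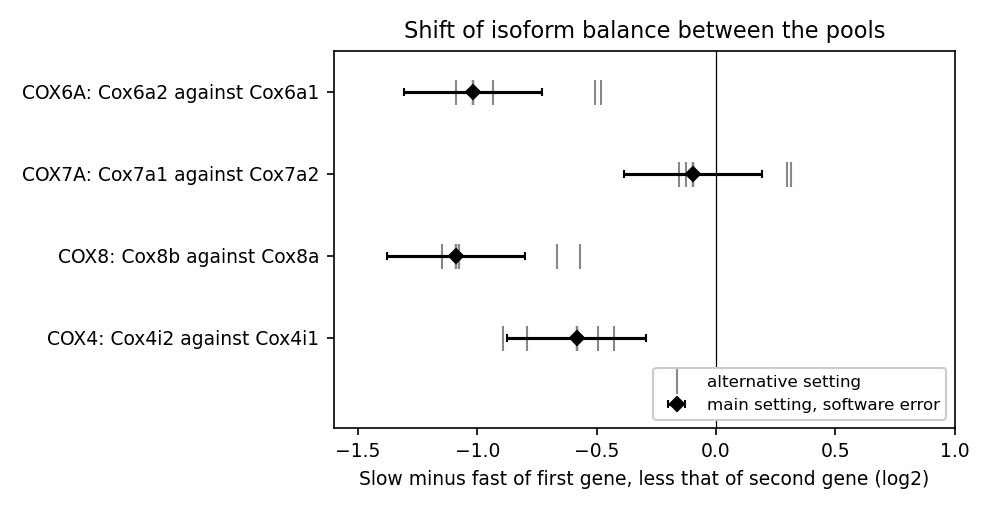
Slow minus fast difference of the first-named gene less that of its partner (log2) for the 4 subunits with paired forms, with the software error as bars and 11 alternative settings as ticks. COX6A (-1.02) and COX8 (-1.09) lie below 0 under every setting, COX4 (-0.58) does so too, and COX7A (-0.10) lies on both sides of 0. Of the alternatives, only quantile normalization, loess and the normexp settings could move a balance.

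Markers of the other cell types that can adhere to isolated fibres were mostly higher in the fast pool, and their part in the values of Cox6a1, Cox8a and the other isoform genes was not tested. Of 37 such markers with signal on both arrays, 27 had 2-fold or more signal in fast fibres, beside 12.7% of all genes. Ncam1 alone had it in slow fibres, beside 9.40% of all genes. The 27 became 18 under scaling to spike-in controls and 16 and 17 under the normexp settings. Among all 12855 measured genes, those past 2-fold towards fast fibres fell from 1627 to 1000, 936 and 916 in that order. The summed level of 8 endothelial genes, in units of the array's 75th percentile signal, was 17.0 in fast and 3.43 in slow fibres. For 6 fibroblast genes it was 90.5 and 21.8, for 6 macrophage and leukocyte genes 16.2 and 4.26, and for 4 red cell genes 94.7 and 35.4. For 8 genes of smooth muscle and pericytes it was 795 and 720, nearly all from Acta2, and 14.9 and 6.35 without Acta2, which was left out after its values were seen. The 4 satellite cell genes gave 7.74 and 2.80, mostly from Cd34. Pax7 was 0.60 higher in log2 in the slow pool, while Vcam1 stood at -1.71 and Cd34 at -1.50, or 0.12 by its other probe. The 5 Schwann cell and nerve genes gave 4.37 and 3.22, and the 5 adipocyte genes 0.369 and 0.381. Neither array had signal well above background for Ptprc, Adgre1, Myf5, Adipoq, Plin1 or Cidec. Most of the macrophage and leukocyte sum came from Cd68, and Csf1r stood at -0.91 by one probe and 0.42 by its other probe. Cldn5 gave the largest part of the endothelial sum in fast fibres. In pooled fibres, a larger share of fibres with a transcript and more of it per fibre cannot be told apart.

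The constitutive subunits of complex IV differed little between the pools. Of 6 other structural subunits 5 had a probe, all within 2-fold, with a median of 0.21 that ran from 0.02 to 0.63 over the settings. They ran from 0.09 for Cox7b to 0.25 for Cox6c, both constitutive membrane subunits. Among rarer isoform genes, Ndufa4l2, a hypoxia-induced relative of the complex IV subunit gene Ndufa4, was 2.31-fold higher in fast fibres, but within 2-fold under scaling to spike-in controls and both normexp settings. Cox6b2 was at -0.18, and neither array had signal well above background for Cox7b2 and Cox8c, forms of the testis. The electron donor cytochrome c (Cycs) and its haem-attaching enzyme (Hccs) were at 0.14 and -0.12, while the testis form Cyct was not well above background.

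Of 29 assembly factors of complex IV, 28 had signal on both arrays. The median was 0.04, and 3 genes were past 2-fold towards slow fibres and none towards fast fibres, beside 9.40% and 12.7% of all genes. Those 3 were Cox19, which takes part in copper delivery to the enzyme, at 2.44-fold (intensities of 2901 and 7581), Timm21, an import subunit that also binds assembly intermediates, at 2.44-fold (339 and 885), and Coa5 at 2.43-fold (498 and 1298). The value of Timm21 was 0.99 in log2 under normexp with quantile normalization. Pet117 had signal on the slow array alone (intensities of 2.83 and 13.4). Under the main setting it was at least 1.73-fold higher in slow fibres, computed against the lowest signal well above background on the fast array. Over the settings its difference fell to as little as 0.14 in log2. Cox19, Timm21 and Coa5 each had 1 probe, as did Cox6a1 and Cox8a.

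Cox8a and Cox6a1 had the highest differences among 78 measured nuclear genes of oxidative phosphorylation, and Cox4i2 the lowest. The 78 left out the assembly factors and the rarer isoform genes, of which Ndufa4l2 stood lower than Cox4i2, at -1.21. Apart from the 10 genes, 0 of the 68 others among the 78 were past 2-fold, although Ndufb3 and Sdhc were so under scaling to spike-in controls. These 68 had a median of 0.07 and an SD over genes of 0.21. The highest of them was Ndufb3, a complex I subunit gene, at 0.84. Relative to the median of the 68 genes, Cox8a was 2.42-fold and Cox6a1 2.17-fold higher in slow fibres. Over the settings these relative log2 values ran from 1.18 to 1.31 for Cox8a and from 0.93 to 1.15 for Cox6a1, while Cox7a2 stayed between -0.04 and 0.04. Among all measured genes, however, 5.87% had a higher difference than Cox8a and 7.27% a higher one than Cox6a1.

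**Figure D4:**
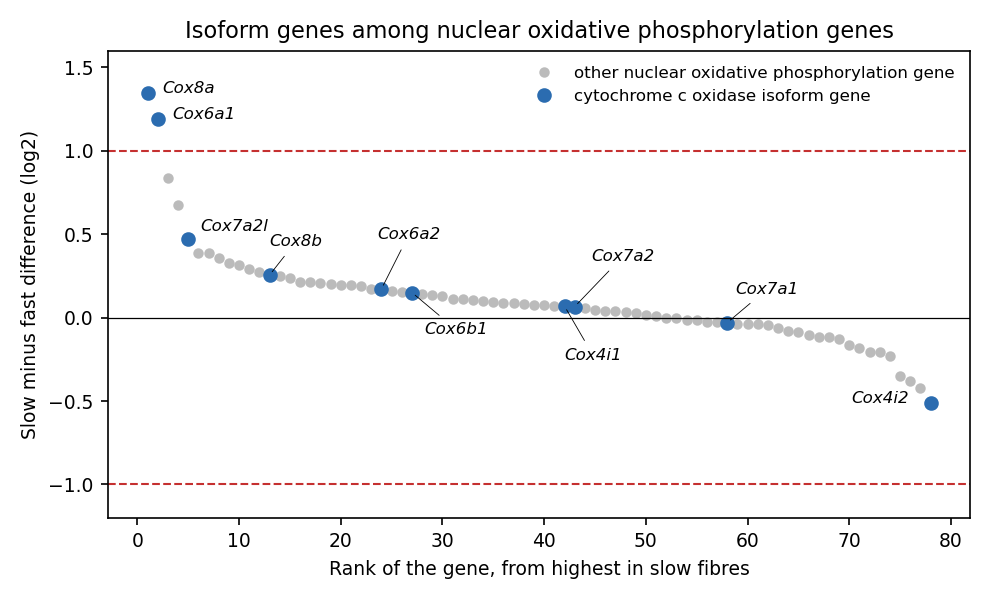
Slow minus fast difference (log2) of 78 nuclear oxidative phosphorylation genes in order of that difference, with the 10 isoform genes in blue and the 2-fold bounds dashed. Cox8a (1.34) and Cox6a1 (1.19) lie above all others, and the muscle forms lie within the main body.

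Among 17 regulators of respiratory genes, 2 were past 2-fold towards slow fibres and 1 towards fast fibres, beside 9.40% and 12.7% of all genes, and the median was 0.19. Esrrb, an estrogen-related receptor that activates oxidative genes, had 26.8-fold more signal in slow fibres, its relative Esrrg had 14.4-fold more, and Cxxc5 was the one past 2-fold towards fast fibres. Under scaling to spike-in controls Cxxc5 was at -0.85 in log2, within 2-fold, and 3 regulators were past 2-fold towards slow fibres. Their relation to the isoform genes was not tested.

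The muscle-form spots were bright, from 103323 for Cox8b in fast fibres to 216410 for Cox6a2 in slow fibres. Graded spike-in controls show how the arrays compared over a range of signals. Between 58316 and the brightest spike-in there was none on the fast array, so for the muscle forms the comparison rests on that brightest one alone. The brightest spike-in, at intensities of 231087 in fast and 208965 in slow, had a slow minus fast difference in raw log2 signal of -0.15, beside a median of -0.32 over the 8 spike-ins well above background, and so lay 0.17 towards the slow array. The spike-ins with intensities from 255 to 58316 on the fast array, a range that holds Cox6a1, Cox8a and Cox7a2, deviated from that median by -0.03 to 0.03. Scaling to the spike-ins added 0.42 to every difference and to the median of all genes, whereas a constant scaling leaves the balance within a pair unchanged.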

How the data were processed

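Gene expression was measured in 2 samples on 1-colour Agilent arrays (Cy3) made from 0.1 µg of total RNA each, per the labels' protocols. The authors' deposited scanner values are spot intensities from Agilent Feature Extraction 12.0.3.1 (submitters' processing notes), which were corrected for background and for spatial trends on each array, per the file headers. The same files give a software error and 0 or 1 flags per spot. The authors' value table holds the same intensities times 2.83 (fast) and 2.45 (slow), with column medians of 30.1 and 27.1. It is neither logged nor centred, and the purpose of the factors is not given in the sources used here.

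Control spots and 159 spots with a feature outlier flag on either array were left out, which left 56596 probes, of which 33763 (59.7%) were named through RefSeq transcripts of assembly GRCm38.p6. Names only were taken from that table, since the array design refers to mm9. Each array's 75th percentile was subtracted from its log2 intensities, and a gene with several probes was read from its brightest one well above background. Probe sequences were not used here, so specificity between related isoforms was not checked. Alternatives changed the scaling (median, 75th percentile over probes detected on both, quantile, loess with a span of 0.3, spike-ins), the background correction (normexp on median signals, offset 50, limma 3.58.1 in R 4.3.3), the source of values, the probe rule, the outlier and dim-spot filters and the size rule. A size rule of 2-fold stands in for a test. The calling steps were tested on simulated data. The named genes are the 10 isoform genes, the genes of each other list past 2-fold or else the farthest from 0 in each direction, Myh7 and Myh4. Other genes are named for their role. The genes of other cell types, Rbpj, Chchd2, Cox6b2 and Sdhc were named after their values were seen. One selected gene is not reported here. The members and lists were chosen with earlier results of these data known.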

Additional observations from a re-analysis of the deposited data

How the results depend on the processing

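No paired analysis was possible because each pool was measured on 1 array. The counts of isoform genes past 2-fold were 2 towards slow and 0 towards fast fibres. Towards slow fibres, 1 was left under normexp with quantile normalization and 0 under a 3-fold size rule, and other alternatives gave the same counts. The probe rules and the dim-spot filter could not change these counts. Of all 12855 measured genes, 1209 (9.40%) were past 2-fold towards slow fibres under the main setting, but 2596 were so under spike-in scaling. The unchanged count of 2 thus stands beside a share of all genes that moved. Scalings by a constant, the authors' table, the probe rules and the outlier and dim-spot filters could not move an isoform balance. A constant for each array cancels within a pair, and each gene had 1 probe, printed once and well above background on both arrays. Only quantile normalization, loess and the normexp settings could move a balance. Under quantile normalization the balances were -0.51 for COX6A, 0.32 for COX7A, -0.57 for COX8 and -0.89 for COX4. Under normexp with quantile normalization they were -0.48, 0.30, -0.67 and -0.79 in that order. Under loess COX6A was at -1.09 and COX4 at -0.43, and under normexp with the 75th percentile at -0.94 and -0.49. Past 2-fold, 0 rarer isoform genes were left under spike-in scaling and both normexp settings in place of 1, and 2 other oxidative phosphorylation genes were added under spike-in scaling in place of 0. The cause was not tested. Normexp with quantile normalization called 708 genes towards slow and 936 towards fast fibres, in place of 1209 and 1627. With the 75th percentile in its stead, normexp called 736 and 916. Slow fibres held 42.6% of all calls, and 72.2% under spike-in scaling, with 2596 and 1000 genes. With 1 array per pool, the number of arrays limits the precision, and Cox4i2 had the signal nearest to background among the 10 genes.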
